A study of Mus musculus with 25 samples.

Results

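The housekeeping noncoding RNAs described here are RNase P RNA and its related copies, RNase MRP RNA, telomerase RNA and a vault RNA. They were taken by gene symbol from a list of 10 (Rn7sk, Rmrp, Rpph1, Rprl1, Rprl2, Rprl3, Rny1, Rny3, Terc and Vaultrc5). In the gene table of 24358 genes, 7 of the 10 had a row. No row matched Rn7sk, Rny1 or Rny3, so 7SK RNA and both Y RNAs were not analysed here. All 7 genes with a row had a successful estimate in every condition, and none was lost to a failed one.

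The study asked whether prenatal exposure to the phthalate plasticiser DEHP leaves a trace in sperm RNA, and whether inbred C57BL/6J and FVB/N mice differ in it. Pregnant females received 300 mg/kg/day DEHP (D300) or its corn oil vehicle (CTL) by mouth from embryonic day 9 to 19. Sperm that swam out of the cauda epididymis of males aged 14 weeks was sequenced by all-RNA-seq, in which RNA is fragmented and its ends are repaired so that RNAs are read whatever their original ends. The 5 conditions hold 5 libraries each. In C57BL/6J they are sons of vehicle females (C57.CTL.F1), sons of DEHP females (C57.D300.F1), and the next generation, fathered by such DEHP sons with unexposed females (C57.D300.F2), here called DEHP grandsons. FVB/N has vehicle sons (FVB.CTL.F1) and DEHP sons (FVB.D300.F1). A second generation without DEHP was not analysed here.

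The deposited table gives 1 estimated fragment count per gene and condition, which combines its 5 libraries, and the variance of that count under the quantification model. Errors below are the square root of this variance (model SD), which is not an SD between libraries. With 1 value per condition there is no replicate check, no test and no p-value. The conditions sum to between 6921688 and 8602900 counts. The 10 libraries of the C57BL/6J vehicle and DEHP sons came from earlier work and the other 15 were new, so a difference between these sets cannot be told apart from strain or generation in any comparison across them. All 10 sperm markers reached at least 10 counts in every condition, but their sum was 92624, 77561 and 31216 counts in C57BL/6J vehicle sons, DEHP sons and DEHP grandsons, against 7990.5 and 9483 in FVB/N vehicle and DEHP sons. The 6 liver markers summed to 144585 and 142122 counts in the reused conditions and to between 563 and 3771 in the new ones. The 7 seminal vesicle markers summed to 219569 counts in C57BL/6J vehicle sons and to at most 507 elsewhere. The 5 blood markers with a row summed to between 1181 counts in FVB/N vehicle sons and 5511 in FVB/N DEHP sons.

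RNase P is a ribonucleoprotein that trims the 5′ leader from precursor transfer RNAs, and its RNA, encoded by Rpph1, is the catalytic part. RNase MRP is its relative: its RNA, encoded by Rmrp, shares nearly all protein subunits with RNase P and acts in ribosomal RNA processing. Telomerase RNA (Terc) carries the template from which telomere repeats are copied. Vault RNAs are short transcripts bound to the vault, a large barrel-shaped particle of the cytoplasm. RNase P, MRP and vault RNAs are made by RNA polymerase III, whereas Terc is made by RNA polymerase II.

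The RNase P group is the place where the strains parted most, and its sequences matter because reads from its members are hard to assign. Rpph1 is annotated in GENCODE M21 (GRCm38, the build also called mm10) as a ribozyme gene at chr14:50807449-50807767 on the minus strand. It overlaps an exon of the protein-coding gene Ccnb1ip1 on the same strand. Ccnb1ip1 held at most 4.66 counts in any condition, but how reads were divided between both genes is not given in the sources used here. Rprl1, Rprl2 and Rprl3, whose symbols stand for RNase P RNA-like, lie at chr6:69326844-69327170 on the minus strand, chr3:22251374-22251663 on the plus strand and chr8:3803069-3803358 on the minus strand, outside any other annotated gene. The nearest protein-coding gene to Rprl3 is Cd209e, 44607 bases away. Each copy aligned to the first 257 bases of Rpph1 and then ran into a 3′ end that Rpph1 lacks.

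The stretches that differ are shown first for Rpph1, with a tandem repeat in capitals, and then for Rprl3, with the bases that differ from Rpph1 in capitals. Both are written as DNA, 5′ to 3′, from GENCODE M21 transcripts.
Rpph1: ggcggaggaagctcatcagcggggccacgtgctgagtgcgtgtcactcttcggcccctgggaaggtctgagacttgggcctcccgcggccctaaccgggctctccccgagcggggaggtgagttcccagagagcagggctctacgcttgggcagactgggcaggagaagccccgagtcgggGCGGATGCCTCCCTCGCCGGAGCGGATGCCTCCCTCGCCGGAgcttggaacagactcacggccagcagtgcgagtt
Rprl3: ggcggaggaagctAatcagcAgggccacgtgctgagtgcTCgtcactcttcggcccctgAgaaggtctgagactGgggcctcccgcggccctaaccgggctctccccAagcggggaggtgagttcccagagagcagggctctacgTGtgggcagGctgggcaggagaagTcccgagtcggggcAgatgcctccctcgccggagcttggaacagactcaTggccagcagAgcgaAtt

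The 319-base Rpph1 RNA holds a unit of 21 bases repeated head to tail at positions 182 to 202 and 203 to 223, counted from 1 at its 5′ end. All 3 copies have this unit once. The windows around it, with the unit in capitals, were printed to show that the flanks are nearly the same.
Rpph1: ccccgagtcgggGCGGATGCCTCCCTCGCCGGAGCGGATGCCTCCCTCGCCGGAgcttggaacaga
Rprl1: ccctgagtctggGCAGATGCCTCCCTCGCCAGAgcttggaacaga
Rprl2: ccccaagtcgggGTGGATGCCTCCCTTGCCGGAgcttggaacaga
Rprl3: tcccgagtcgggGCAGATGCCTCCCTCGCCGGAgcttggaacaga

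Apart from the missing 21 bases, which the alignment could place at either unit, Rprl3 was 93.6% identical to Rpph1 over the shared stretch, with 15 substitutions. Rprl2 had 16 substitutions (93.2% identical) and Rprl1 had 21 (91.1%). In the notation used here, the Rpph1 base comes first, then its position, then the base of the copy. The 3 copies shared the substitutions G40T, T75G and T250A, and 9 of those in Rprl3 were its own, among them C14A, G21A, G60A, G108A and C240T. The full 290-base Rprl2 and Rprl3 RNAs differed from each other at 23 bases.

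A short read can match more than 1 of these genes. Of the 241 windows of 50 bases in Rprl3, 7 also occurred without change in another RNase P gene, and 54 (22.4%) lay within 2 substitutions of some Rpph1 window. Among the 259 windows of 32 bases, 147 (56.8%) lay within 2 substitutions. For Rprl2 and Rprl1 the counts at 50 bases were 12 of 241 and 16 of 278 windows. Of the 270 windows of 50 bases in Rpph1, 184 (68.1%) occurred without change in another gene, 0 of them in the RNase P group. A gene annotated over the same place counts as another gene here, and Rpph1 overlaps an exon of Ccnb1ip1. These windows therefore need not occur elsewhere in the genome. The shortest reads kept were 18 bases, and at that length 105 of 273 Rprl3 windows occurred exactly in another RNase P gene. The reference genome was built from C57BL/6J, and an FVB/N sequence was not analysed here. How the counting divided reads among the 4 genes is not given in the sources used here, so each of their counts is uncertain, and their sum is given beside them.

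Rprl3 had 3.75 ± 2.83 counts in C57BL/6J vehicle sons, 9.63 ± 4.69 in C57BL/6J DEHP sons and 2.37 ± 2.00 in the DEHP grandsons (model SD), against 841 ± 206 in FVB/N vehicle sons and 1210.3 ± 308 in FVB/N DEHP sons. Both FVB/N conditions were far above all C57BL/6J conditions, and no intervals of 1 model SD overlapped between strains. The DEHP grandsons, whose libraries are new like those of FVB/N, sat with the other C57BL/6J conditions, and their value was under the limit of detection of 3 counts, which covers counting error only. In log2 ratios of counts with 1 added, Rprl3 was higher by 7.47 ± 0.93 in FVB/N vehicle sons than in C57BL/6J vehicle sons (a 224-fold difference), by 6.83 ± 0.73 in FVB/N DEHP sons than in C57BL/6J DEHP sons (126-fold), and by 7.97 ± 0.93 in FVB/N vehicle sons than in the DEHP grandsons. That last comparison lies within the new libraries, although strain, exposure of the lineage and generation differ in it together. As in any bulk sample, fewer cells of a type and less RNA per cell cannot be told apart.

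Rprl2 was at 2.00 ± 1.73, 2.85 ± 2.45 and 2.00 ± 2.00 counts in C57BL/6J vehicle sons, DEHP sons and DEHP grandsons, and at 18.2 ± 7.28 and 33.1 ± 11.8 in FVB/N vehicle and DEHP sons. The same split by strain was seen at a much lower level, with every C57BL/6J value under the limit of detection. Its log2 ratios were 2.67 ± 1.00 for FVB/N vehicle sons against C57BL/6J vehicle sons, 3.15 ± 1.05 for FVB/N DEHP sons against C57BL/6J DEHP sons and 2.67 ± 1.11 for FVB/N vehicle sons against DEHP grandsons. With 10 counts added in place of 1, they were 1.23, 1.75 and 1.23, all under 2 log2 units. Rprl1 never reached 10 counts: it was at 0.395, 0.833 and 0.561 in the 3 C57BL/6J conditions and at 3.52 and 5.68 in FVB/N vehicle and DEHP sons.

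Rpph1 itself ran the other way. It had 12936 ± 6230 counts in C57BL/6J vehicle sons, 10556 ± 5057 in C57BL/6J DEHP sons, 6703 ± 2737 in the DEHP grandsons, 4641 ± 1591 in FVB/N vehicle sons and 6719 ± 2451 in FVB/N DEHP sons. The vehicle conditions differed by 2.79-fold (log2 ratio of FVB/N to C57BL/6J −1.48 ± 0.85), a difference of 8294 counts with a model SD of 6430. No comparison of Rpph1 reached 2 log2 units. Its log2 ratio was −0.65 ± 0.87 between the DEHP sons of both strains and −0.53 ± 0.77 for FVB/N vehicle sons against DEHP grandsons, neither larger than its model SD. FVB/N DEHP sons and DEHP grandsons were nearly level.

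The 3 copies together made up 0.0475% of the summed RNase P count in C57BL/6J vehicle sons, 0.126% in C57BL/6J DEHP sons and 0.0735% in the DEHP grandsons. In FVB/N vehicle sons they made up 15.7 ± 5.52%, and in FVB/N DEHP sons 15.7 ± 5.82% (model SD). The share was thus equal at this precision with and without DEHP in FVB/N, while the counts of all 4 genes were higher with DEHP. Rprl3 supplied 97.5% and 96.9% of the copies' counts in these conditions. These shares lie within 1 condition and do not depend on scaling between conditions. The summed count of the 4 genes was 12942, 10569.7, 6707, 5504 and 7968 in C57BL/6J vehicle sons, DEHP sons and DEHP grandsons and in FVB/N vehicle and DEHP sons, so the sum followed Rpph1. Its log2 ratio for FVB/N vehicle sons against C57BL/6J vehicle sons was −1.23. The sperm markers, given above, were lower in both FVB/N conditions, and their part in these differences was not tested.

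**Figure D1:**
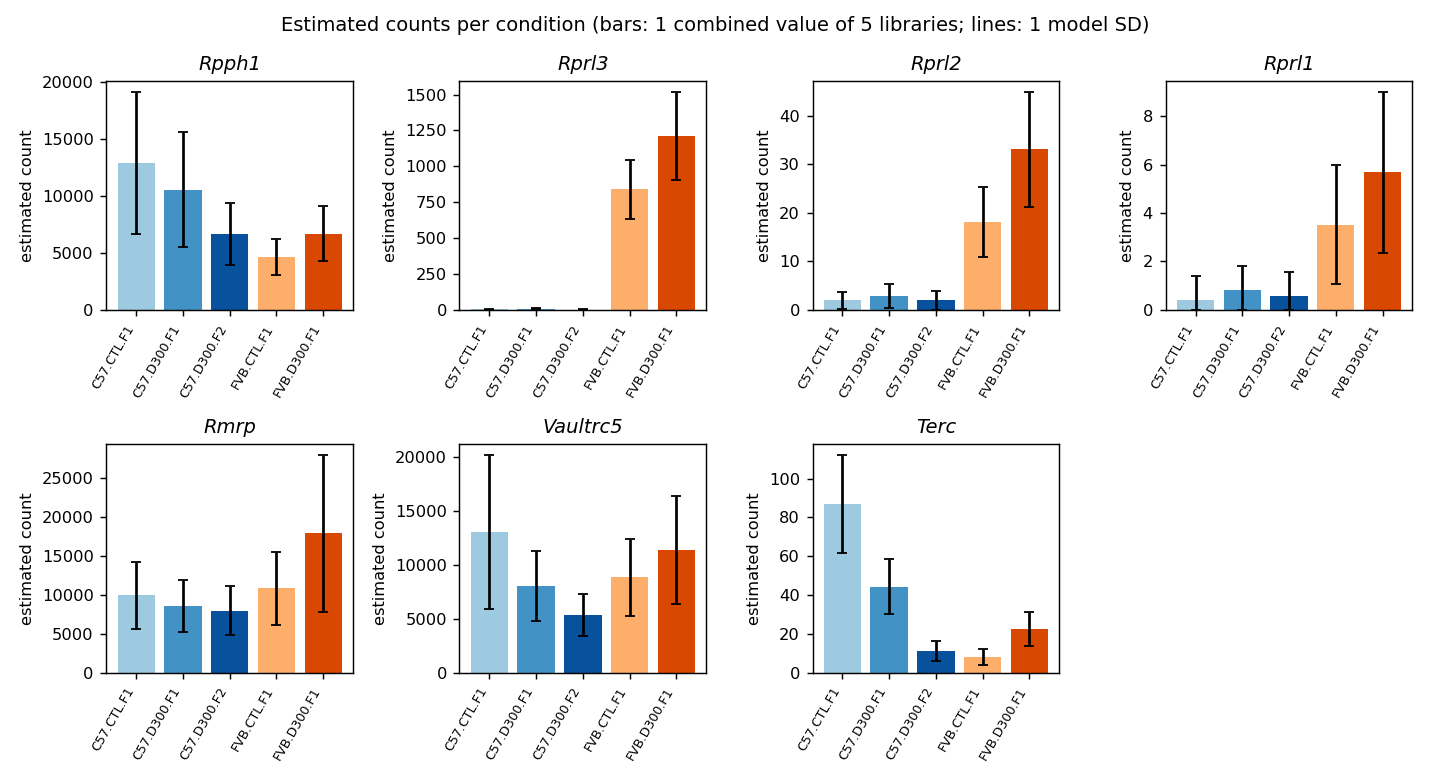
Estimated counts (y axis, linear, from 0, with its own range in each panel) of the 7 RNAs in the 5 conditions (x axis), with bars for the 1 combined value of 5 libraries and lines for 1 model SD, ended at 0 where they would fall below it. Rprl3 reaches 841 and 1210.3 counts in FVB/N and at most 9.63 in C57BL/6J, and Terc goes from 87.0 counts in C57BL/6J vehicle sons to 8.02 in FVB/N vehicle sons.

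RNase MRP RNA was the most even of the members above the minimum count. Rmrp (chr4:43492788-43493058, minus strand, a ribozyme gene that overlaps an exon of Ccdc107 on the opposite strand) had 9913 ± 4333 counts in C57BL/6J vehicle sons, 8579 ± 3357 in C57BL/6J DEHP sons, 7944 ± 3141 in the DEHP grandsons, 10828 ± 4680 in FVB/N vehicle sons and 17909 ± 10072 in FVB/N DEHP sons. The highest value, in FVB/N DEHP sons, also had the widest model SD, and all intervals of 1 model SD overlapped. Its log2 ratios ran from −0.32 ± 0.85 for DEHP grandsons against C57BL/6J vehicle sons to 1.06 ± 0.99 for FVB/N DEHP sons against C57BL/6J DEHP sons, and no difference in counts exceeded its model SD. Reads were aligned with a strand-specific library type, but whether the counting kept to strand is not given in the sources used here. Ccdc107 was at 163 to 282 counts.

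Relative to RNase P RNA, RNase MRP RNA was higher in FVB/N. The ratio of Rmrp to Rpph1 counts was 0.766 ± 0.50, 0.813 ± 0.50 and 1.19 ± 0.67 in C57BL/6J vehicle sons, DEHP sons and DEHP grandsons, and 2.33 ± 1.29 and 2.67 ± 1.79 in FVB/N vehicle and DEHP sons. Against the summed RNase P count, the FVB/N ratios were 1.97 and 2.25. In the DEHP grandsons the ratio to the summed count was 1.18. Rmrp thus exceeded RNase P in both FVB/N conditions and, by less, in the DEHP grandsons, although the model SDs of the ratios to Rpph1 overlapped. It was below RNase P in C57BL/6J vehicle and DEHP sons, the reused conditions. Library set cannot be told apart from strain or generation there.

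**Figure D2:**
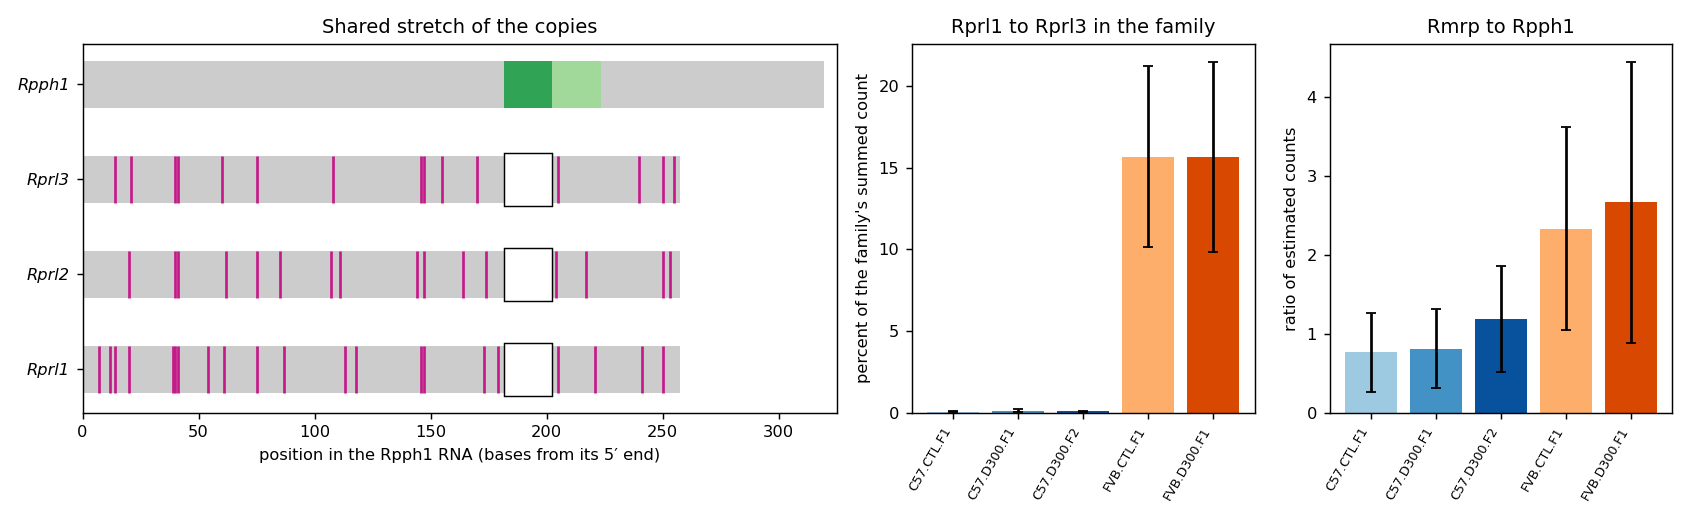
The left panel maps the 3 copies on the Rpph1 RNA (x axis, bases from its 5′ end), with grey for the aligned stretch, both green shades for the units of the tandem repeat in Rpph1, white boxes for the 21 bases missing from each copy and pink lines for substitutions. The middle panel gives the percentage of the summed RNase P count held by Rprl1, Rprl2 and Rprl3, and the right panel the ratio of Rmrp to Rpph1 counts, with 1 combined value per condition and lines for 1 model SD. The copies hold 15.7% in both FVB/N conditions and at most 0.126% in C57BL/6J.

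Vaultrc5, the mouse vault RNA, had 13031 ± 7169 counts in C57BL/6J vehicle sons, 8045 ± 3215 in C57BL/6J DEHP sons, 5355 ± 1935 in the DEHP grandsons, 8822 ± 3537 in FVB/N vehicle sons and 11349 ± 4998 in FVB/N DEHP sons. Within C57BL/6J it was highest in the vehicle sons and lowest in the second generation, a log2 ratio of −1.28 ± 0.95. That difference of 7676 counts was just larger than its model SD of 7425, and it was the only Vaultrc5 difference to exceed its model SD. In FVB/N the DEHP sons were higher than the vehicle sons by 0.36 ± 0.86, within the error. The seminal vesicle markers, given above, were likewise highest in C57BL/6J vehicle sons, and their part in these values was not tested.

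Telomerase RNA was rare and varied most after the RNase P copies. Terc lies at chr3:96414437-96414859 on the minus strand, and its first 60 bases carry the letters that pair with telomere repeats, shown in capitals at positions 28 to 36.
Terc: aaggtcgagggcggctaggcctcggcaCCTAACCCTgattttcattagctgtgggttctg

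Terc had 87.0 ± 25.4 counts in C57BL/6J vehicle sons, 44.2 ± 14.2 in C57BL/6J DEHP sons, 11.2 ± 5.39 in the DEHP grandsons, 8.02 ± 4.12 in FVB/N vehicle sons and 22.6 ± 8.77 in FVB/N DEHP sons. Both reused conditions stood above all 3 new ones, and the intervals of 1 model SD of C57BL/6J vehicle sons and C57BL/6J DEHP sons did not overlap. The intervals of C57BL/6J DEHP sons (reused) and FVB/N DEHP sons (new) did overlap. The second generation was lower than the vehicle sons by 7.79-fold, a log2 ratio of −2.85 ± 0.76. FVB/N vehicle sons were lower than C57BL/6J vehicle sons by 10.8-fold (−3.29 ± 0.78). Within the new libraries, FVB/N vehicle sons and DEHP grandsons differed by less than the model SD (−0.43 ± 0.92). Strain or generation cannot be told apart from library set here. The liver markers were also far higher in the reused than in the new conditions, with all 6 at 10 counts or more in every condition. Between vehicle and DEHP sons they were nearly level in C57BL/6J (144585 and 142122 counts) and lower with DEHP in FVB/N (827 and 563), unlike Terc. The sperm markers, given above, were also higher in the reused conditions, and like Terc lower with DEHP in C57BL/6J and higher in FVB/N. The part of either list in the Terc values was not tested.

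The direction of the Terc difference between DEHP and vehicle sons was opposite in the strains. DEHP sons of C57BL/6J were lower by a log2 ratio of −0.96 ± 0.62, and those of FVB/N were higher by 1.39 ± 0.85, each larger than its model SD. The gap between both ratios, FVB/N minus C57BL/6J, was 2.35, and Terc was the 1 member of the 6 that passed the minimum count to reach 2 log2 units. Over all genes 1.22% reached it. With 10 counts added in place of 1, or with a minimum of 100 counts, no member did. For this gap Terc passed the minimum through both C57BL/6J conditions and FVB/N DEHP sons, while FVB/N vehicle sons, at 8.02 counts, were under it. The call rests on the values above and adds nothing to them. The gap for Vaultrc5, Rmrp and Rpph1 was 1.06, 0.93 and 0.83, and that for Rprl3 was −0.64.

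A minimum of 10 counts in 1 of the compared conditions was set for comparing DEHP and vehicle sons of a strain. In C57BL/6J, 4 members passed, all through both conditions, namely Rmrp, Rpph1, Terc and Vaultrc5. All 4 were lower in the DEHP sons, with log2 ratios of −0.21 to −0.96 and a median of −0.49. Over all genes the median was −0.01, and 48.3% were above 0. None of the 4 members reached 2 log2 units, which 0.291% of all genes did, and only the Terc difference exceeded its model SD. Other small noncoding RNA genes did not share this direction by median, but both classes held genes of either direction. The median was 0.17 for 112 small nucleolar RNA genes, with 74 above 0, and 0.13 for 117 microRNA genes, with 70 above 0. The genes of the 11 RNase P and MRP proteins were lower by RNA count, with a median of −0.30 and 2 of 11 above 0. For the 8 telomerase protein genes the median was 0.01, and for the 3 vault protein genes −0.10. Rprl3, with 3.75 and 9.63 counts, stayed under the minimum. The 7 seminal vesicle markers were lower in the DEHP sons too, at 70.5 counts against 219569, with 3 of 7 at 10 counts or more against all 7, and their part in the members' values was not tested.

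In FVB/N, 6 members passed. Terc, with 8.02 and 22.6 counts, did so only through the DEHP sons, where it is high, so its ratio of 1.39 is not counted with the others. The other 5 had at least 10 counts in both conditions and were higher in the DEHP sons, by 0.36 (Vaultrc5), 0.52 (Rprl3), 0.53 (Rpph1), 0.73 (Rmrp) and 0.83 (Rprl2). Over all genes the median was 0.0046, and 50.6% were above 0. None of the 6 reached 2 log2 units, which 0.68% of genes did, and the differences of Rprl2 and Terc alone exceeded their model SDs. Other small noncoding RNA genes stood in the same direction. The median was 0.61 for small nucleolar RNA genes, with 113 of 113 above 0, and 0.45 for microRNA genes, with 91 of 106 above 0. The epididymal markers were also higher in FVB/N DEHP sons, at 91921 counts against 37430.1 in FVB/N vehicle sons over 8 genes estimated in every condition. Of these, 8 reached 10 counts in the DEHP sons and 3 in the vehicle sons, none was at 0, and their part in this was not tested.

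Across generations, the second C57BL/6J generation was lower than the vehicle sons for all 4 members that passed, with a median log2 ratio of −1.12, beside −0.04 over all genes and 0.04 for small nucleolar RNA genes. Of all genes, 46.8% were above 0. Terc was the 1 member past 2 log2 units, beside 4.19% of all genes. The vehicle sons' libraries were reused and the grandsons' were new, so that generation and library set cannot be told apart. Between the same conditions the sperm markers went from 92624 to 31216 counts, the liver markers from 144585 to 3771 and the seminal vesicle markers from 219569 to 507, and their part was not tested. Against the DEHP sons of the first generation, the same 4 were lower, from −0.11 (Rmrp) to −1.89 (Terc), so that none reached the threshold, beside 3.64% of genes. The median of all genes there was −0.05, and 45.6% were above 0. Between the latter conditions the sign for Rmrp changed with scaling to equal totals (0.069) and with upper quartile factors (0.075), so Rmrp has no settled direction there. Scaling to equal totals also moved the median of all genes by up to 0.30, between DEHP grandsons and C57BL/6J vehicle sons.

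Between strains, 6 members passed. Without DEHP, 3 of them were past 2 log2 units (Rprl2 and Rprl3 higher in FVB/N, Terc lower), beside 10.3% of all genes. With DEHP, 2 were (Rprl2 and Rprl3), beside 10.3% of genes. Within the new libraries, FVB/N vehicle sons against DEHP grandsons again had the same 2, beside 3.21% of genes. Rprl2 and Rprl3 passed the minimum only through FVB/N, and Terc, without DEHP, only through C57BL/6J, in each case where they are high. All members counted here passed in this way, so these counts add nothing to their values above. With the RNase P group summed into 1 value, the counts were 1, 0 and 0 in these comparisons.

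**Figure D3:**
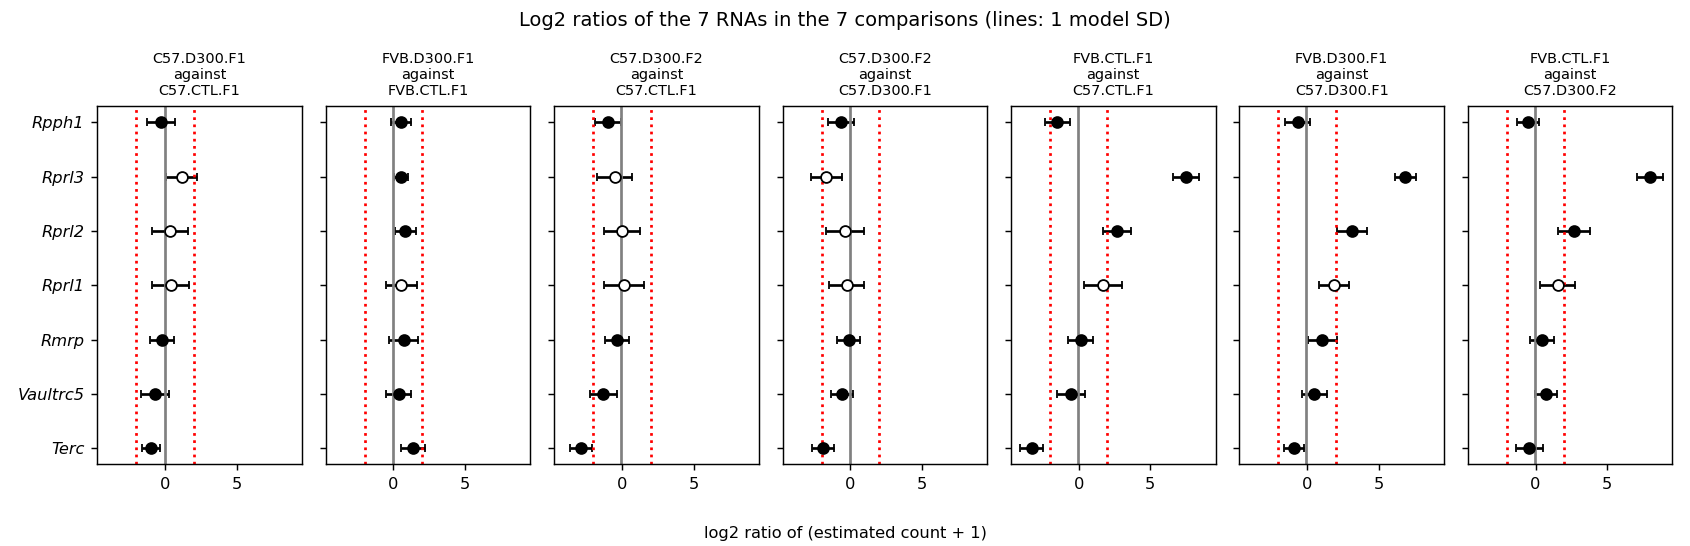
Log2 ratios of estimated counts with 1 added (x axis) for the 7 RNAs (y axis) in the 7 comparisons, with lines for 1 model SD, the median of all genes in grey and 2 log2 units in dotted red. Open points mark RNAs under the minimum count of 10. Rprl3 lies between 6.83 and 7.97 in the 3 comparisons of FVB/N with C57BL/6J, and no RNA passes a red line between DEHP and vehicle sons of a strain.

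Levels of different RNAs were set side by side as counts per kilobase of the annotated RNA. In C57BL/6J vehicle sons, Vaultrc5 had 91124 counts per kilobase, Rpph1 40550.5 and Rmrp 36579.7, followed by Terc with 206, Rprl3 with 12.9, Rprl2 with 6.91 and Rprl1 with 1.21. The upper 3 were far above the rest, but their order depended on the length used. With the RefSeq length of 345 bases in place of 143 for Vaultrc5, its level was 37770.1, and the 3 lay within their model SDs of each other. Vaultrc5 and Rpph1, Rpph1 and Rmrp, Rprl3 and Rprl2, and Rprl2 and Rprl1 were neighbours that, with GENCODE lengths, did not differ beyond their model SDs. In FVB/N vehicle sons the order was Vaultrc5 (61695), Rmrp (39955), Rpph1 (14549), Rprl3 (2902), Rprl2 (62.6), Terc (19.0) and Rprl1 (10.8). There, Vaultrc5 and Rmrp, and Terc and Rprl1, did not differ beyond their model SDs. With RefSeq lengths Rmrp (39374) stood above Vaultrc5 (25572), and Vaultrc5 and Rpph1 did not differ beyond their model SDs either. The main change of order was Rprl3, which stood below Terc in C57BL/6J vehicle sons and well above it here. The 7 RNAs together made up between 0.289% of all counts in the DEHP grandsons and 0.450% in FVB/N DEHP sons.

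Genes of the proteins that bind or make these RNAs were compared in the same way. Their values are RNA counts of these genes, and no protein level was analysed here. Of 59 partner protein genes, all with counts, none reached 2 log2 units in any of the 7 comparisons. Their 413 ratios ran from −1.32 (Rpp25, FVB/N vehicle sons against DEHP grandsons) to 1.61 (Snapc4, FVB/N DEHP sons against C57BL/6J DEHP sons). The abundant RNAs lay in a like range, with Rmrp between −0.32 and 1.06, Rpph1 between −1.48 and 0.53 and Vaultrc5 between −1.28 and 0.72, and the wider ratios were those of Rprl2, Rprl3 and Terc. For the 11 RNase P and MRP protein genes the median log2 ratio was between −0.30 and 0.12. Pop7, with the highest mean count of them, had 191, 113, 105, 224 and 201 counts in C57BL/6J vehicle sons, DEHP sons and DEHP grandsons and in FVB/N vehicle and DEHP sons, and Rpp14 stayed between 115 and 142. Pop7 was higher in both FVB/N conditions than in any C57BL/6J condition, by at most a log2 ratio of 1.09.

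For the 8 telomerase protein genes, which include those of the reverse transcriptase Tert and the dyskerin group that stabilises Terc, the medians were between −0.02 and 0.27. Nop10 was at 419, 361, 378, 208 and 198 counts in the same order of conditions, lower in FVB/N like Terc but not in the DEHP grandsons, and the ribonuclease Parn was at 240.3, 253, 279.8, 377 and 404. Tert, at 19.9 to 53.4 counts, was highest in FVB/N DEHP sons. The vault protein genes Tep1 and Mvp were at 981 to 2027 and 559 to 889 counts, both highest in FVB/N vehicle sons. The list medians were between −0.30 and 0.56 over 3 genes.

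Among 28 genes of RNA polymerase III and its factors, medians lay between −0.12 and 0.38. Gtf3c1, part of the factor TFIIIC, was at 889 to 1239 counts and Bdp1, part of TFIIIB, at 688 to 1081, both highest in FVB/N vehicle sons. For the RNAs without a row, RNA counts of partner protein genes were available. The 7 genes of the 7SK particle proteins and the kinase it holds inactive had medians between −0.13 and 0.07. Hexim1 was at 357 to 479.9 counts and Ccnt2 at 220.1 to 359.7. The genes of Ro and La, proteins that bind Y RNAs and new RNA polymerase III transcripts, had 255 to 380.2 counts (Trove2) and 465 to 809 counts (Ssb).

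**Figure D4:**
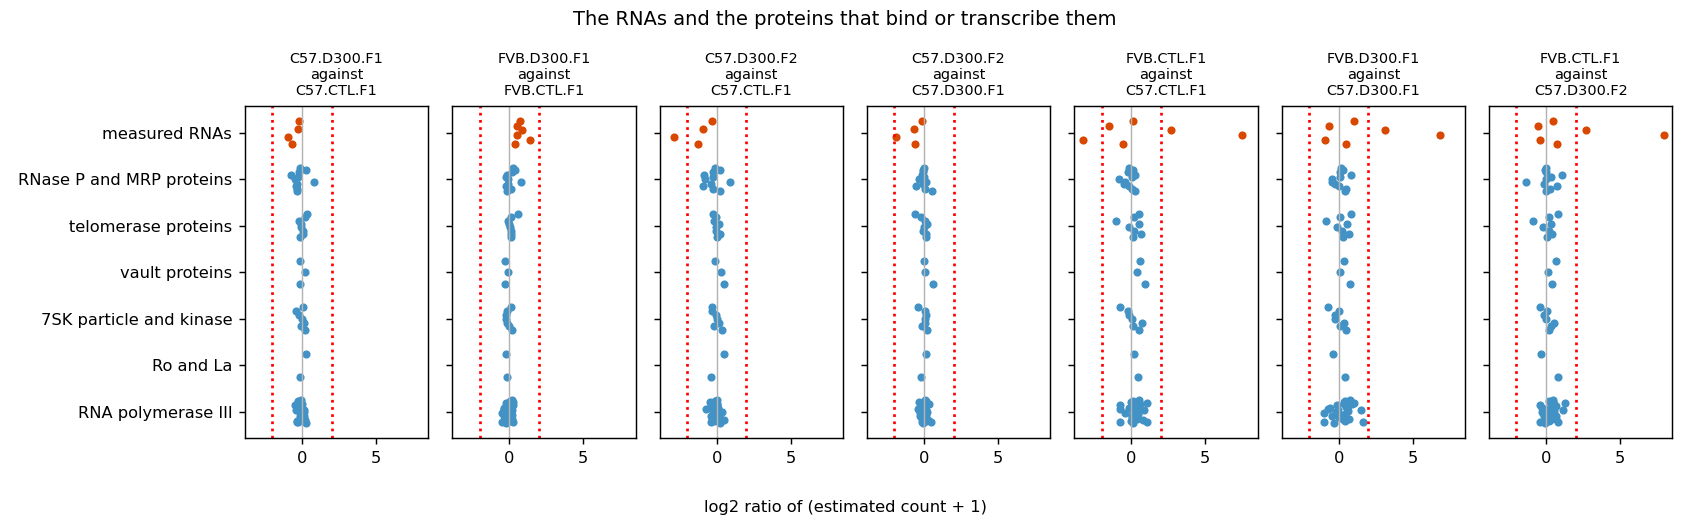
Log2 ratios of estimated counts with 1 added (x axis) in the 7 comparisons, with 1 point per gene that passed the minimum count. The y axis holds the measured RNAs (orange) and 6 groups of partner protein genes (blue), by their RNA counts. Dotted red lines mark 2 log2 units. All points of partner protein genes lie between −1.32 and 1.61, while the measured RNAs reach from −3.29 (Terc) to 7.97 (Rprl3).

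Other abundant noncoding RNAs give a scale for these values. Rnu12, the U12 RNA of the minor spliceosome, was at 32465, 24847, 10597, 83775 and 118825 counts in C57BL/6J vehicle sons, DEHP sons and DEHP grandsons and in FVB/N vehicle and DEHP sons. Like Rprl3 it was highest in FVB/N, and it was the 1 RNA of this set past 2 log2 units, at 2.26 between the DEHP sons of both strains and 2.98 for FVB/N vehicle sons against DEHP grandsons. Its partner in the minor spliceosome, Rnu11, was at 7200.2, 10258, 11066, 12854 and 20425 counts. Rnu73b (3997 to 9308), Malat1 (50313 to 108724), Neat1 (8315 to 15433) and the rare Bc1 (8.31 to 19.8) did not reach the threshold. Rn45s, the ribosomal precursor, had a failed estimate in every condition, and Rn7s1, Rn7s2 and Rnu3a had no row.

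The genes with the most similar profile were sought by the Euclidean distance between log2 counts over the 5 conditions, each centred on its own mean, among 9919 genes with a mean of at least 100 counts. For Rmrp these were Scarna2 (distance 0.147), Jmjd6 (0.188) and Rhbdl1 (0.196). Rpph1 was closest to Rmnd1 (0.175), Hs6st1 (0.184) and Acot7 (0.202), and Vaultrc5 to Smpd2 (0.174) and the small nucleolar RNA genes Snora74a (0.220) and Snora52 (0.278). Rprl3 had no close match, its nearest being Aqp2 at 2.62, Wt1os at 2.83 and Mir8114 at 3.23. Aqp2, a water channel, had 2.84, 2.56 and 8.39 counts in the C57BL/6J conditions and 1181 and 424 in FVB/N vehicle and DEHP sons. It was thus lower in DEHP than in vehicle sons of FVB/N, unlike Rprl3.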

How the data were processed

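Sperm RNA from 25 mouse libraries was sequenced by all-RNA-seq. The authors clipped adapters, kept reads of at least 18 bases, aligned them with TopHat to mm10 and estimated counts with Cuffdiff. TopHat was run with a gene annotation and the second-strand library type. The annotation release, the versions of TopHat and Cuffdiff, and the options of Cuffdiff are not given in the sources used here. The deposited values are a signal, 1 estimated fragment count per gene and condition, scaled between libraries by the authors and not divided by length, with its variance under Cuffdiff's model. Further columns with parts of that variance, 10 in all, were not used.

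Failed estimates (71 genes) were treated as missing. Log2 ratios were taken after adding 1 count. A difference of at least 2 log2 units was counted among genes with at least 10 counts in 1 compared condition (for the gap between strains, in 1 of the 4 F1 conditions). Model SDs of ratios and shares were propagated to first order, with conditions and genes taken as independent. No test was possible with 1 value per condition. All members, fixed lists of partner proteins (those past 2 log2 units and the 2 of highest mean count), and the 3 most similar genes to members with a mean of at least 100 counts were to be named, and a few others were named after their values were seen. The members and lists were chosen with earlier results of these data known. RNA sequences and places came from GENCODE M21 and second lengths from RefSeq. Sequences were aligned with Biopython 1.88 (match 1, mismatch −1, gap opening −3, gap extension −0.5). Python 3.11.15, numpy 2.4.6, pandas 2.3.3 and matplotlib 3.10.9 were used. The counting rule was run on simulated counts, with changes planted above the threshold in well-counted genes and with counting error only. That run checks the code and does not show how reliable the calls of members with low counts are. Alternatives tried were 3 scalings, 2 other pseudocounts, a minimum count of 100 or none, a threshold of 1, a difference above its model SD, the summed RNase P group and values under 3 set to 3, the last chosen after seeing the data.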

Additional observations from a re-analysis of the deposited data

Results flagged for a closer look

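The Terc difference between DEHP and vehicle sons had opposite signs in the strains, with a gap of 2.35 log2 units between the FVB/N ratio (1.39) and the C57BL/6J ratio (−0.96). It drew attention because the combined value moved down in one strain and up in the other. The difference was not tested, since each condition has 1 value, and it rests on counts between 8.02 and 87.0. In FVB/N the vehicle sons, at 8.02, were under the minimum of 10 counts. The FVB/N ratio thus passed only through the DEHP sons, where Terc is high, while the gap passed through both C57BL/6J conditions too. With 10 counts added, or with a minimum of 100 counts, no member reached 2 log2 units in this gap.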

How the results depend on the processing

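No paired analysis was possible because the deposited table holds no values of single libraries, and leaving out each library was not run for the same reason. Of 88 alternative counts of members past the threshold 73 were unchanged or within 1.5 times, as were 59 of 63 medians within 0.5 log2 units. Many of the unchanged counts were 0 under both settings, in comparisons where no member was past 2 log2 units. These say little on the stability of the calls. No result past 2 log2 units changed sign. A threshold of 1 log2 unit gave 1 member in place of 0 between FVB/N DEHP sons and FVB/N vehicle sons, 2 in place of 1 between DEHP grandsons and C57BL/6J vehicle sons, 1 in place of 0 between DEHP grandsons and C57BL/6J DEHP sons, and 2 in place of 1 for the gap between strains. A minimum of 100 counts, under which Terc and Rprl2 drop out, gave 0 between DEHP grandsons and C57BL/6J vehicle sons, 1 in each of the 3 comparisons of FVB/N with C57BL/6J, and 0 for the gap between strains. With 10 counts added, 1 member was left between the DEHP sons of both strains and between FVB/N vehicle sons and DEHP grandsons, and 0 for the gap between strains, so the Terc gap depends on this choice. With the RNase P group summed, 1, 0 and 0 members were past the threshold in the comparisons of vehicle sons, of DEHP sons and of FVB/N vehicle sons with DEHP grandsons, and their medians were −0.90, 0.044 and 0.081. Without a minimum count, the median between DEHP grandsons and C57BL/6J vehicle sons was −0.50 in place of −1.12, and that between the vehicle sons changed sign, from −0.22 to 0.13. Among log2 ratios of single members, 22 of 294 moved by 0.5 or more, all with another pseudocount or with values under 3 set to 3. Depth limits Rprl1, with at most 5.68 counts in any condition. In C57BL/6J it also limits Rprl2, at most 2.85 counts, and Rprl3, between 2.37 and 9.63. Rprl2 in FVB/N, at 18.2 and 33.1 counts, is low as well.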
